A study of Homo sapiens with 5 samples.

Results

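The subject is a set of 10 cell cycle genes given by symbol: the D cyclins CCND1, CCND2 and CCND3, the G cyclins CCNG1 and CCNG2, the CDK inhibitors CDKN1A, CDKN1B, CDKN1C and CDKN2C, and the pocket protein gene RBL2. All 10 have a row among the 26475 rows of the deposited count table. All 10 were also among the 13940 genes that reached at least 1 CPM in at least 1 library. CPM are reads of a gene relative to library depth. Depth was the library total in the filters on genes compared or tested, and was TMM-scaled elsewhere unless stated. The cells were MDA-MB-231, an established human triple-negative breast cancer line of mesenchymal character. RNA-seq libraries were made from cells kept for 1 day at 1% O2 (acute hypoxia), from cells kept for 10 days at 1% O2 (chronic hypoxia), from reoxygenated cells that spent 10 days at 1% O2 and a further 10 days at 20% O2, and from cells kept at 20% O2 for 1 day or for 10 days. Each of these 5 conditions has 1 library, and the labels name no drug or genetic change. Cells kept at 20% O2 for as long as the reoxygenated cells had been in culture in all were not analysed here.

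D cyclins activate CDK4 and CDK6, which phosphorylate the retinoblastoma family proteins and so release E2F transcription factors at the passage from G1 into S phase. The CIP/KIP inhibitors p21 (CDKN1A), p27 (CDKN1B) and p57 (CDKN1C) bind cyclin-CDK complexes, whereas p18 (CDKN2C) belongs to the INK4 inhibitors, which bind CDK4 and CDK6 directly. RBL2 encodes p130, a retinoblastoma relative that is part of the DREAM repressor complex in resting cells. Cyclin G1 binds the phosphatase PP2A, and cyclin G2 is an unconventional cyclin linked to cell cycle arrest, which FOXO factors and hypoxia are known to induce. MDA-MB-231 cells have lost the INK4 genes CDKN2A and CDKN2B.

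Sequence upstream of the start sites is shown for the pair of G cyclins, whose levels followed unlike courses, and for RBL2 and CDKN1B, whose levels followed the most similar course among the 10 genes. The windows hold the 250 bases before the first listed RefSeq start (GRCh38.p14), 5′ to 3′ in the direction of transcription, all on the plus strand: chr4:77156957-77157206 for CCNG2, chr5:163437321-163437570 for CCNG1, chr16:53434221-53434470 for RBL2 and chr12:12717118-12717367 for CDKN1B. Capitals mark ACGTG on either strand, a form of the core letters (ACGTG or GCGTG) of the element bound by hypoxia-inducible factors.
CCNG2: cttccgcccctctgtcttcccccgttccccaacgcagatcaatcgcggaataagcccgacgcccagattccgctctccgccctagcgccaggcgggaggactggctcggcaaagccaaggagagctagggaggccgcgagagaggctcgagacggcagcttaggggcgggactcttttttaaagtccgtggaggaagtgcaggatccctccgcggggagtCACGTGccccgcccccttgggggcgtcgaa
CCNG1: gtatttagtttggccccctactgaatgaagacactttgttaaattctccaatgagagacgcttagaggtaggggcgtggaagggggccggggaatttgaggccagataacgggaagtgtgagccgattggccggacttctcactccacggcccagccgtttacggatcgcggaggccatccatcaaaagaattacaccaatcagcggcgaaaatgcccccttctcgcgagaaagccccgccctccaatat
RBL2: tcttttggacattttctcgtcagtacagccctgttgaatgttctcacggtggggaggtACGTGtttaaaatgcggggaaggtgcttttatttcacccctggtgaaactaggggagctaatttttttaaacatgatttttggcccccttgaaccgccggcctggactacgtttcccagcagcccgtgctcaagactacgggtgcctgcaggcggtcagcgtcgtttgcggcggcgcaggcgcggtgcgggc
CDKN1B: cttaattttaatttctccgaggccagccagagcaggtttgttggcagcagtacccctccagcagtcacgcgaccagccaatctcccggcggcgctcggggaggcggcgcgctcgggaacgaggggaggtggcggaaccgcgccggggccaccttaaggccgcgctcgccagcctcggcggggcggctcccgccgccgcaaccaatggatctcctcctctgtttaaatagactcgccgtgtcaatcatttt

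The CCNG2 window held the palindrome CACGTG at position -30 from the start, which contains ACGTG on both strands, and the RBL2 window held ACGTG at position -192. The CCNG1 and CDKN1B windows held no ACGTG on either strand. However, GCGTG, a form that was not searched for, can be read in the CCNG1 window, and its reverse complement CACGC in the CDKN1B window. Promoter windows were listed for 7 of the 10 genes, 13 windows in all, and 4 of them contained ACGTG or its reverse complement CACGT: those of CCNG2, of 1 of 2 RBL2 starts and of 2 of 3 CDKN2C starts. Among all 35116 RefSeq windows of the same length, 18.5% contained ACGTG on either strand, and 6.34% contained CACGTG. Of the 13 windows, 3 contained CACGTG: that of CCNG2 and those of the same 2 CDKN2C starts. The FOXO motif GTAAACA (reverse complement TGTTTAC) was in 2.98% of all windows and in 0 of the 13. A match is only a description of the letters. CCND1, CCND2 and CDKN1C are named without a window.

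The deposited expected counts summed to 7719807 to 12544941 per library, so that 1 count corresponded to 0.0816 to 0.126 CPM. VIM, a mesenchymal marker, was at 977 to 2200 CPM, whereas ESR1 and PGR, the steroid receptor genes, had at most 4 counts, and CDH1, the epithelial cadherin gene, had at most 13. CDKN2A and CDKN2B had 0 counts in all 5 libraries, which allows up to 3 counts, or 0.245 to 0.377 CPM. Of 11 markers of blood, endothelium, fibroblasts and liver, 5 or 6 reached 3 counts in a library. Their sum was 22.5 CPM in chronic hypoxia, of which the collagen gene COL1A1 gave 14.5, against 6.45 to 12.2 CPM in the other 4 libraries. The leukocyte gene PTPRC had 28 counts in chronic hypoxia and 1 to 14 in the other 4 libraries, the collagen gene COL3A1 27 and 2 to 8, and the endothelial gene VWF 7 and 0 to 4, while the T cell gene CD3E had 0 counts in every library. By contrast, the endothelial gene PECAM1 had 6 counts in chronic hypoxia and 5 to 15 in the other 4 libraries. The fibroblast gene DCN had 0 counts in chronic hypoxia and 0 or 1 in the other 4 libraries. The part of these marker genes in the results was not tested.

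With 1 library per condition, the differences between libraries below have no replicate check and no p-value. A log2 difference compares 2 libraries, after TMM scaling and with a prior count of 2, and the 95% interval in parentheses is an exact interval of the count ratio that covers counting error only. Counts of genes use a rule of size, a log2 difference of at least 1 in either direction (2-fold). In bulk RNA, fewer cells in a state that expresses a gene and less RNA per cell cannot be told apart.

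**Figure D1:**
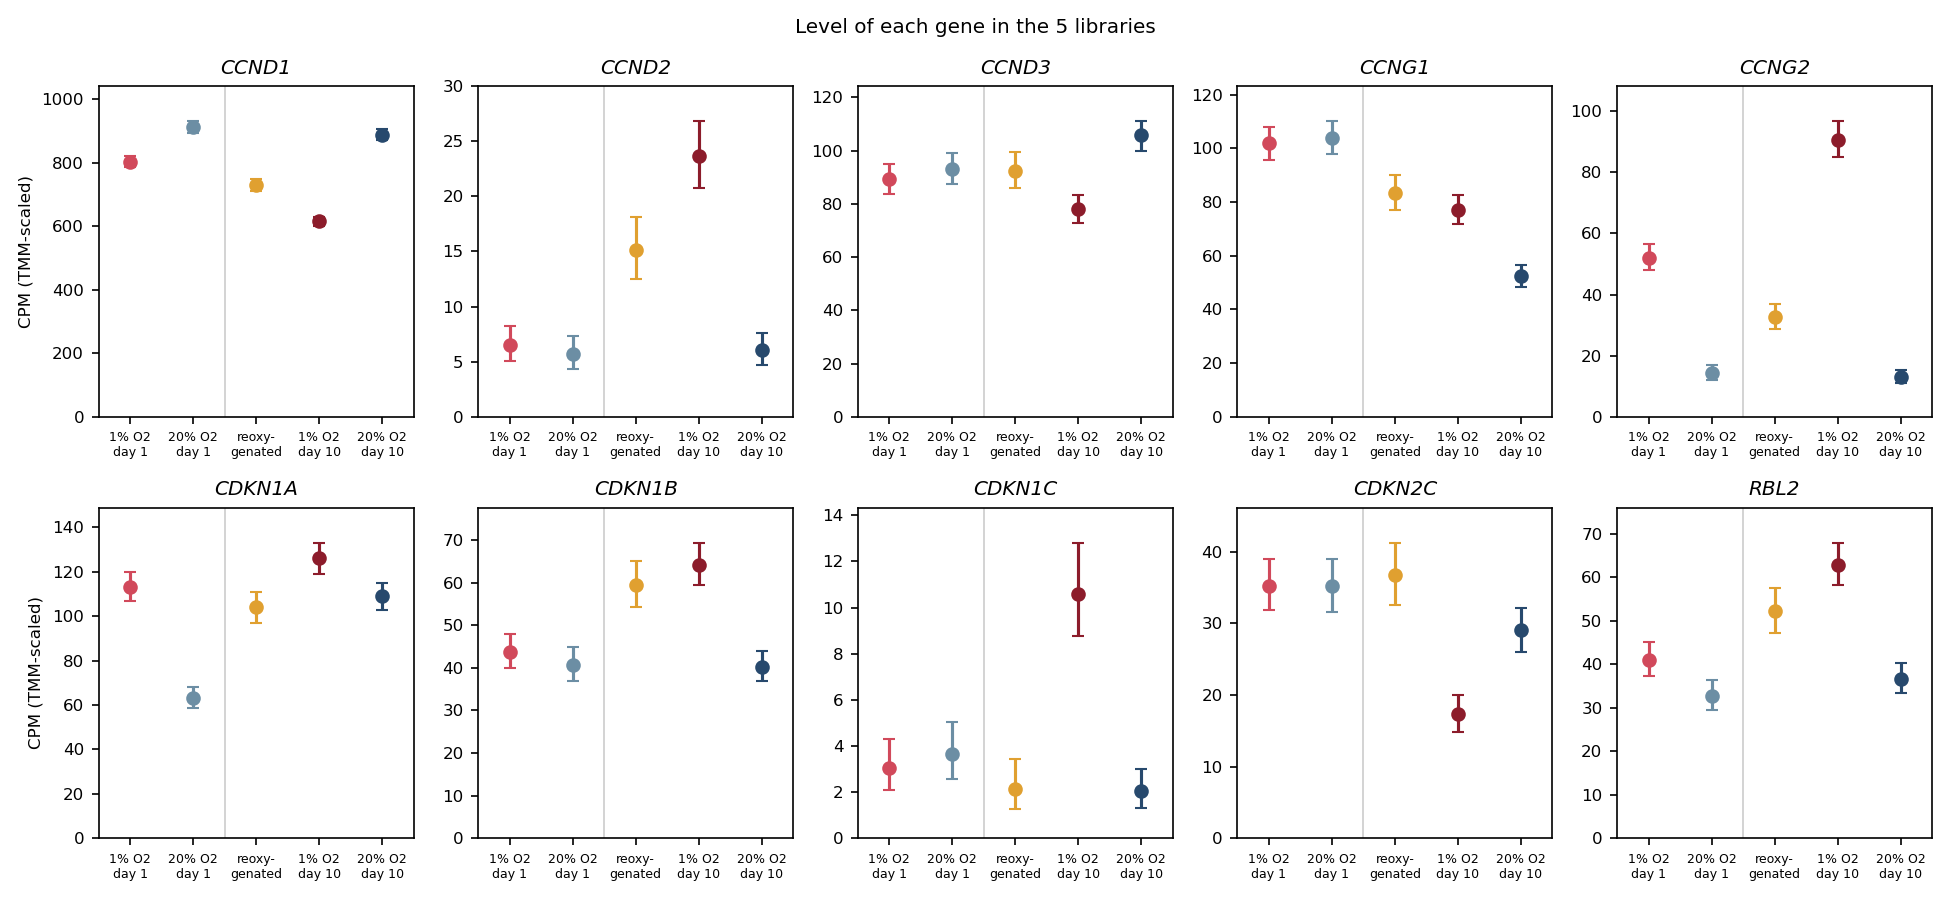
Level of each of the 10 genes (vertical axis, CPM after TMM scaling, starting at 0) in the 5 libraries (horizontal axis). Points are single libraries and bars are exact 95% Poisson intervals of the count. CCNG2 stands at 90.6 CPM in chronic hypoxia against 13.1 CPM at 20% O2 on day 10, and CDKN1A is lowest in the 20% O2 library of day 1, at 63.3 CPM.

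Per length of annotated exons, CCND1 was the most abundant of the 10 genes in every library, at 127 to 189 CPM per kb. CDKN1A came next at 20.8 to 41.3 CPM per kb, followed by CCNG1 at 16.9 to 33.6, and these ranges overlap. The ranges of CDKN1B (14.3 to 22.8 CPM per kb) and CCND3 (13.4 to 18.3) also overlap, so that their order is not separated by the spread over libraries. CDKN2C lay at 5.21 to 11.1 CPM per kb, RBL2 at 4.48 to 8.59 and CCNG2 at 1.75 to 12.1. CDKN1C (0.823 to 4.28 CPM per kb) and CCND2 (0.794 to 3.31) were the lowest pair in every library. CCNG2 took the sixth place of the 10 in chronic hypoxia, against the eighth place in both 20% O2 libraries, while CDKN2C took the eighth place in chronic hypoxia and the sixth in the other 4 libraries.

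Cyclin G2 was the member that differed most with oxygen. CCNG2 (chromosome 4, 77157207 to 77170060) had 562 counts, or 52.1 CPM, after 1 day at 1% O2, against 150 counts, or 14.4 CPM, after 1 day at 20% O2. It had 32.6 CPM (259 counts) in reoxygenated cells and 90.6 CPM (945 counts) after 10 days at 1% O2, against 13.1 CPM (161 counts) after 10 days at 20% O2. The counting intervals of all 3 libraries from cells exposed to 1% O2 lay above those of both 20% O2 libraries, which overlapped each other. The log2 difference was 1.84 (1.59 to 2.12) on day 1, or 3.57-fold, the 46th highest of 13940 genes. On day 10 it was 2.77 (2.54 to 3.04), or 6.81-fold, the 163rd highest. The day 10 difference exceeded the day 1 difference by 0.93 (0.58 to 1.29).

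Cyclin G1 followed another course. CCNG1 (chromosome 5, 163437571 to 163457640) had 102 CPM at 1% O2 and 104 CPM at 20% O2 on day 1, a log2 difference of -0.03 (-0.16 to 0.09). It had 83.3 CPM in reoxygenated cells and 77.0 CPM after 10 days at 1% O2, against 52.3 CPM after 10 days at 20% O2. The 20% O2 library of day 10 thus stood apart below the other 4, and the difference between both 20% O2 libraries, day 10 over day 1, was -0.99 (-1.13 to -0.85), the 197th lowest of 13940 genes. The chronic difference of 0.56 (0.41 to 0.71) was accordingly positive although the 1% O2 library of day 10 itself was lower than that of day 1, by a log2 difference of -0.40 (-0.53 to -0.27). Per kb of exon, CCNG2 was at 12.1 and CCNG1 at 24.9 CPM in chronic hypoxia, against 1.75 and 16.9 CPM per kb at 20% O2 on day 10.

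Among the D cyclins, the abundant members were lower and the scarce member was higher in chronic hypoxia. CCND1 (chromosome 11, 69641156 to 69654474), the D cyclin that is amplified in many breast cancers, had 803 CPM at 1% O2 and 911 CPM at 20% O2 on day 1. It had 729 CPM in reoxygenated cells and 615 CPM in chronic hypoxia, against 888 CPM at 20% O2 on day 10. All 3 libraries from cells exposed to 1% O2 were below both 20% O2 libraries, with log2 differences of -0.18 (-0.22 to -0.14) for acute hypoxia, -0.53 (-0.57 to -0.49) for chronic hypoxia and -0.28 (-0.33 to -0.24) for reoxygenated cells against 20% O2 on day 10. None of these reached the 2-fold rule.

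CCND3 (chromosome 6, 41934933 to 42050035) had 89.3 CPM at 1% O2 and 93.2 CPM at 20% O2 on day 1, with overlapping intervals. It had 92.5 CPM in reoxygenated cells and 78.0 CPM in chronic hypoxia, against 106 CPM at 20% O2 on day 10, and the chronic log2 difference was -0.44 (-0.57 to -0.31). CCND3 therefore lay close to the course of CCND1: after each gene was centred on its mean, their log2 levels differed by a root mean square of 0.12 over the 5 libraries.

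CCND2 (chromosome 12, 4273762 to 4305353) had 70 counts (6.49 CPM) at 1% O2 and 59 counts (5.68 CPM) at 20% O2 on day 1. It had 120 counts (15.1 CPM) in reoxygenated cells and 247 counts (23.7 CPM) in chronic hypoxia, against 74 counts (6.04 CPM) at 20% O2 on day 10. The intervals of the reoxygenated and chronic libraries lay above those of the other 3, which overlapped. The chronic log2 difference was 1.94 (1.59 to 2.37), or 3.83-fold, whereas the acute one was 0.19 (-0.33 to 0.72), and they differed by 1.75 (1.13 to 2.38). Even so, CCND2 reached 3.31 CPM per kb in chronic hypoxia, against 127 CPM per kb of CCND1 in the same library. Of the sampled 50-base words of CCND2 transcripts, 19.2% also occur in other genes, most often in AC008012.1, an overlapping gene on the same strand. No counts were given under the name AC008012.1, and the expected counts of CCND2 were whole numbers in every library. Whether any reads of this shared sequence came from AC008012.1 was not tested.

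Of the CIP/KIP inhibitors, CDKN1C alone passed the 2-fold rule in chronic hypoxia. CDKN1B and CDKN1A were above 20% O2 on day 10 by less. For CDKN1A, 60% of all genes had a lower chronic difference. CDKN1C (chromosome 11, 2883218 to 2885775) had 33 counts at 1% O2 and 38 counts at 20% O2 on day 1, or 3.06 and 3.66 CPM. It had 17 counts (2.14 CPM) in reoxygenated cells and 111 counts (10.6 CPM) in chronic hypoxia, against 25 counts (2.04 CPM) at 20% O2 on day 10. Chronic hypoxia was the single high library, and the intervals of the other 4 overlapped in part. The chronic difference was 2.28 (1.75 to 3.07), or 4.85-fold, the acute one was -0.25 (-0.98 to 0.45), and the reoxygenated library differed from 20% O2 on day 10 by 0.06 (-0.91 to 1.01).

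CDKN1B (chromosome 12, 12717368 to 12722369) had 43.7 CPM at 1% O2 and 40.7 CPM at 20% O2 on day 1. It had 59.5 CPM in reoxygenated cells and 64.2 CPM in chronic hypoxia, against 40.2 CPM at 20% O2 on day 10. The reoxygenated and chronic libraries were both above the other 3, with a chronic log2 difference of 0.67 (0.51 to 0.85), and they differed from each other by -0.11 (-0.28 to 0.06).

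CDKN1A (chromosome 6, 36676463 to 36687332) had 113 CPM at 1% O2 and 63.3 CPM at 20% O2 on day 1. It had 104 CPM in reoxygenated cells and 126 CPM in chronic hypoxia, against 109 CPM at 20% O2 on day 10. Here the 20% O2 library of day 1 stood alone below the other 4. The acute difference of 0.84 (0.70 to 0.98) was the 463rd highest of 13940 genes, but the difference between the 20% O2 libraries, day 10 over day 1, was of similar size at 0.78 (0.65 to 0.92), and the chronic difference was 0.20 (0.09 to 0.32). The acute difference and the difference between the 20% O2 libraries share that low library.

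The INK4 member went the other way. CDKN2C (chromosome 1, 50960745 to 50974634) had 35.2 CPM in both day 1 libraries. It had 36.7 CPM in reoxygenated cells and 17.3 CPM in chronic hypoxia, against 29 CPM at 20% O2 on day 10. The chronic library was the lowest, with a log2 difference of -0.74 (-1.01 to -0.48) from 20% O2 and of -1.02 (-1.29 to -0.77) from 1 day at 1% O2. The reoxygenated library was 2.12-fold higher than the chronic one, a log2 difference of 1.08 (0.82 to 1.37).

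RBL2 (chromosome 16, 53434471 to 53491648) had 41.1 CPM at 1% O2 and 32.8 CPM at 20% O2 on day 1. It had 52.2 CPM in reoxygenated cells and 62.9 CPM in chronic hypoxia, against 36.6 CPM at 20% O2 on day 10. Each library from cells exposed to 1% O2 was above its 20% O2 counterpart, by 0.32 (0.12 to 0.53) for acute hypoxia, 0.78 (0.60 to 0.96) for chronic hypoxia and 0.51 (0.31 to 0.71) for reoxygenated cells. The course of RBL2 was closest to that of CDKN1B, with a root mean square difference of 0.10 in centred log2 level, the smallest between any 2 of the 10 genes. RBL2 overlaps AKTIP on the opposite strand over 610 exonic bases; AKTIP itself was at 12.0 to 14.5 CPM in all 5 libraries.

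**Figure D2:**
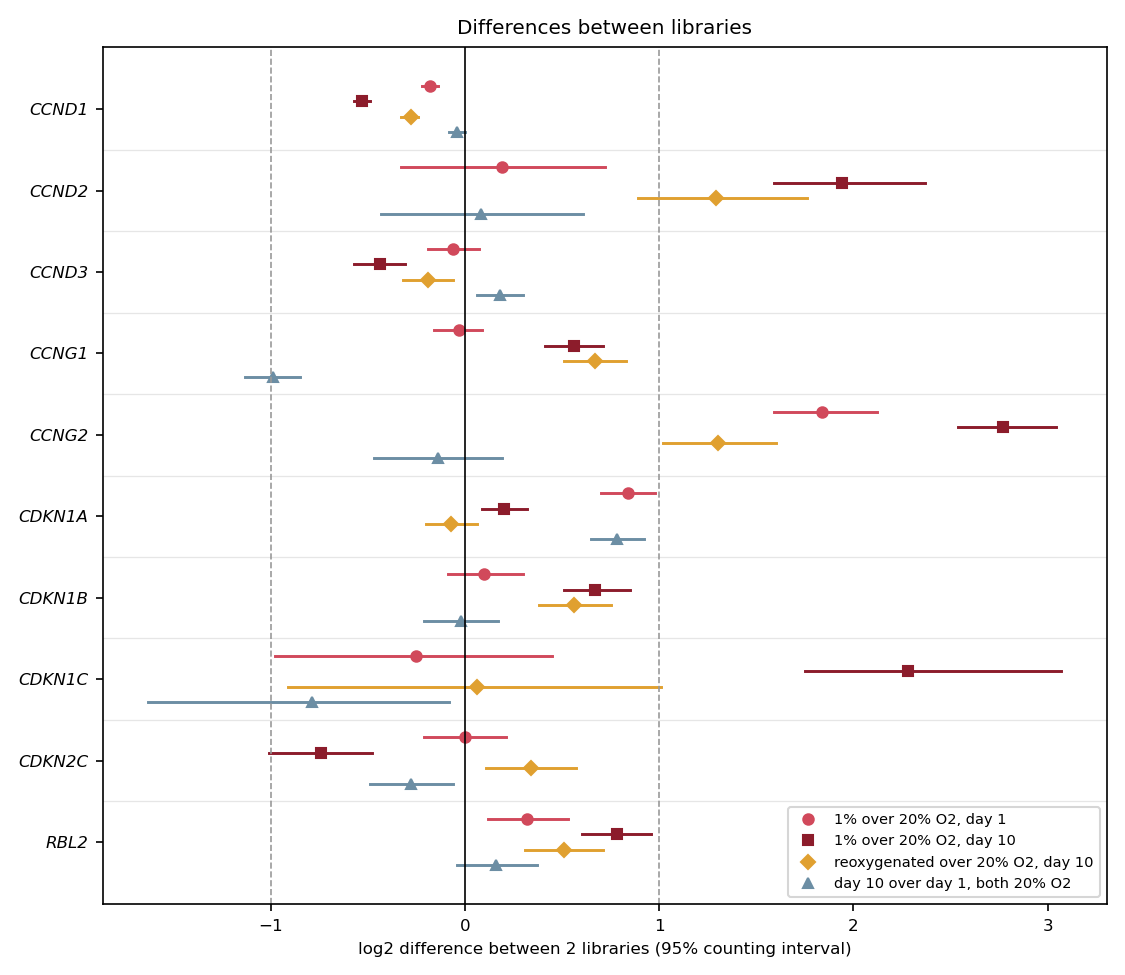
Log2 differences between 2 libraries (horizontal axis) for the 10 genes (rows), with exact 95% counting intervals; dashed lines mark the 2-fold rule. CCNG2 lies past the rule for acute hypoxia at 1.84 and for chronic hypoxia at 2.77, while CCND2 and CDKN1C lie past it for chronic hypoxia, at 1.94 and 2.28, but not for acute hypoxia.

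Counted by the 2-fold rule, 1 of the 10 genes (CCNG2) was higher and 0 were lower after 1 day at 1% O2, where 2.12% of all genes were higher and 0.839% lower. After 10 days 3 were higher (CCNG2, CDKN1C and CCND2) and 0 lower, against 14.4% and 7.04% of all genes. The median log2 difference of the 10 genes was 0.05 after 1 day and 0.61 after 10 days, beside 0.00 and 0.02 over all genes compared. Of all genes past the rule after 10 days, 67.2% were higher with TMM factors and 77.8% with library totals; within 1% O2 these shares were 68.4% and 80.4%, and for chronic minus acute 67.0% and 78.2%. In the difference of differences, chronic minus acute, CCND2 and CDKN1C were higher and 0 lower, against 12.5% and 6.18% of all genes. CCNG2, at 0.93, reached the rule there with library totals (1.06) and with a 5 CPM filter (1.00), which makes 3 genes. Within 1% O2, day 10 over day 1, CCND2 and CDKN1C were higher and CDKN2C lower, against 14.2% and 6.56% of all genes. CCNG2, at 0.80 (0.65 to 0.95) in that comparison, did not reach the rule. Between the 20% O2 libraries, day 10 over day 1, 0 of the 10 genes were higher or lower, where 3.06% of all genes were higher and 1.31% lower, and CCNG1 lay just inside the rule. CDKN2C within 1% O2 lay at the edge of the rule, and library totals, the size factors of DESeq2, the deposited normalized values or a 5 CPM filter each put it inside.

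**Figure D3:**
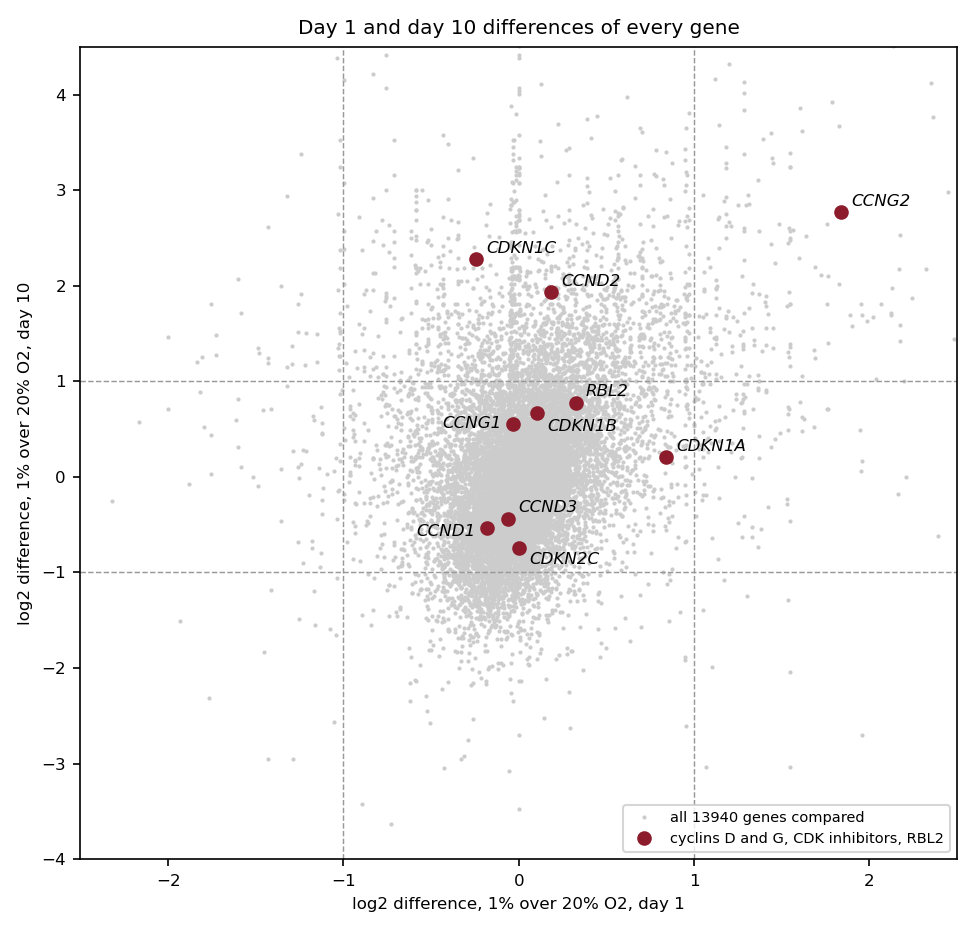
Log2 difference after 10 days (vertical axis) against that after 1 day (horizontal axis), both 1% over 20% O2, for all 13940 genes compared (grey) and the 10 genes (red); 37 genes lie outside the axes and dashed lines mark the 2-fold rule. CCNG2 lies past the rule on both axes, CDKN1C and CCND2 on the vertical axis alone, and CDKN1A nears it on the horizontal axis alone.

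After reoxygenation the 10 genes took different positions relative to the chronic library and the 20% O2 library of day 10. Against chronic hypoxia, CCNG2 was lower by a log2 difference of -1.47 (-1.68 to -1.28) and CDKN1C by -2.22 (-3.15 to -1.57), while CDKN2C was higher. These are 2 genes lower and 1 higher of 10, where 11.2% of all genes were lower and 5.60% higher. Against 20% O2 on day 10, CCNG2 was still higher by 1.30 (1.02 to 1.60) and CCND2 by 1.29 (0.89 to 1.76), that is 2 genes higher and 0 lower, against 3.40% and 1.41% of all genes. They ranked 235th and 236th of 13940 genes. Below the 2-fold rule, CCNG1 at 0.67 (0.51 to 0.83) and CDKN1B at 0.56 (0.38 to 0.75) were also above 20% O2 on day 10. So were RBL2 at 0.51 (0.31 to 0.71) and CDKN2C at 0.34 (0.11 to 0.57). CCND1 at -0.28 (-0.33 to -0.24) and CCND3 at -0.19 (-0.32 to -0.06) were below that library. CDKN1A at -0.07 (-0.20 to 0.06) and CDKN1C at 0.06 (-0.91 to 1.01) were not distinguishable from it at this depth. The reoxygenated and chronic differences share the 20% O2 library of day 10, and the reoxygenated cells were in culture for longer, which cannot be told apart from their earlier stay at 1% O2.

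Taking both days together, CCNG2 was the single gene of the 10 that passed a test of oxygen. The 1% O2 libraries of day 1 and day 10 were compared with the 20% O2 libraries of the same days by edgeR's quasi-likelihood test with day as a term. CCNG2 rose by a log2 change of 2.34 (SE 0.30, Benjamini-Hochberg adjusted p = 2.48e-05 over 13011 genes), in the same direction on both days. This is 1 of 10 genes rising, where 0.899% of all genes rose, and 0 of 10 falling, where 0.0999% fell; 3 of the 10 had an unadjusted p under 0.05, as had 12.2% of all genes. Beside CCNG2 these were CCND2 at 1.14 (SE 0.43, adjusted p = 0.259) and RBL2 at 0.57 (SE 0.27, adjusted p = 0.396) in the same edgeR test, and the adjusted p of the remaining 7 ran from 0.417 to 0.768.

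When DESeq2 or limma-voom replaced edgeR, CCNG2 was again the single one called. Its adjusted p was at most 0.0095 over the 6 alternatives that kept all 4 libraries and the day. Of these 6, the fit on reads recovered from the deposited normalized values only repeated the main fit. Those reads equalled the counts in the 10 genes. Only 1 residual degree of freedom remained in the main fit, the unequal size of the oxygen difference on the 2 days. Without the day term CCNG2 had an edgeR adjusted p of 0.772, and it was 1 when, in addition, the 20% O2 library of day 1 or of day 10 was left out; the log2 change was 2.40, 2.49 and 2.35 in these fits. Leaving out the 1% O2 library of day 1 instead gave 7 of the 10 genes called by edgeR, in a fit that called 32.8% of all genes (CCNG2 at 2.77, adjusted p = 8.39e-05), and leaving out that of day 10 gave CCNG2 alone (1.92, adjusted p = 0.00445). With any library left out, 1 oxygen level has a single library, which is assumed to vary like the pair at the other level, so these p-values rest on the spread of that pair, moderated across genes.

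Among partners of these genes in the passage from G1 to S phase, CDC25A, CCNE2 and CCNA2 were lower in chronic hypoxia. The lists were chosen with earlier results of these data known. Of 10 G1/S kinases and cyclins, 3 were lower and 0 higher by the 2-fold rule after 10 days, against 7.04% and 14.4% of all genes. The median log2 difference of the 10 was -0.61, beside 0.02 over all genes. The phosphatase gene CDC25A, which activates CDK2, had 21.4 CPM in chronic hypoxia and 87.0 CPM at 20% O2 on day 10, a difference of -2.01. The cyclin genes CCNE2 at -1.69 and CCNA2 at -1.60 were the others past the rule. CDK4, the kinase partner of the D cyclins, had 97.3 CPM in chronic hypoxia and 169 CPM at 20% O2, a difference of -0.79, whereas CDK6 differed by -0.32. After 1 day the median of this list was -0.15, with 0 genes higher or lower, against 2.12% and 0.839% of all genes.

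Of 19 genes of the retinoblastoma, E2F and DREAM group, 4 were lower and 0 higher in chronic hypoxia, against 7.04% and 14.4% of all genes, with a median of -0.57 beside 0.02. The 4 were E2F8 (-1.63), which encodes a repressing E2F, RBL1 (-1.43), LIN9 (-1.02) and MYBL2 (-1.01). RBL1, which encodes the p130 relative p107, had 31.7 CPM in chronic hypoxia and 85.8 CPM at 20% O2, opposite in direction to RBL2. RB1 itself differed by -0.68. Of 14 genes for the turnover of D cyclins and CDK inhibitors, 1 was lower and 0 higher, a share of lower genes near the 7.04% of all genes, and their median was -0.45. This gene, SKP2, which encodes the ubiquitin ligase subunit that targets p27, had 18.1 CPM in chronic hypoxia and 57.4 CPM at 20% O2, a difference of -1.65. It had 55.9 CPM in reoxygenated cells.

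Of 17 further cyclin genes that passed the filter, 4 were lower and 0 higher in chronic hypoxia, against 7.04% and 14.4% of all genes, with a median of -0.45 beside 0.02. These were CCNB1 (-1.76), CCNF (-1.48), CCNB2 (-1.31) and CCNC (-1.03). None of these 17 was higher by the 2-fold rule, whereas CCNG2 and CCND2 were. Of the remaining CDK inhibitor genes, CDKN3 was lower by -1.28 and CDKN2D, an INK4 gene, differed by 0.76, opposite to its relative CDKN2C. In edgeR's test of oxygen over both days, the lowest adjusted p in these 5 lists was 0.127, for CDC25A.

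Of 12 genes for FOXO factors and their known targets, 5 were higher and 1 lower in chronic hypoxia, against 14.4% and 7.04% of all genes, and the other 6 did not reach the rule. The median was 0.74, beside 0.02 over all genes. The repressor gene BCL6 had 74.5 CPM in chronic hypoxia and 14.2 CPM at 20% O2, a difference of 2.38. The insulin receptor substrate gene IRS2 differed by 2.38 and FOXO4 by 2.49, and the insulin receptor gene INSR by 1.00. TXNIP, which encodes a thioredoxin-binding protein that limits glucose uptake, was higher by 1.06 after 1 day and 1.95 after 10 days. In edgeR's test of oxygen TXNIP alone of the 12 rose, by 1.52 (adjusted p = 0.00723), where 0.899% of all genes rose. GADD45A, a growth arrest gene, was lower at -1.10. Against chronic hypoxia, 5 of the 12 were lower and 0 higher in reoxygenated cells, where 11.2% of all genes were lower and 5.60% higher.

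**Figure D4:**
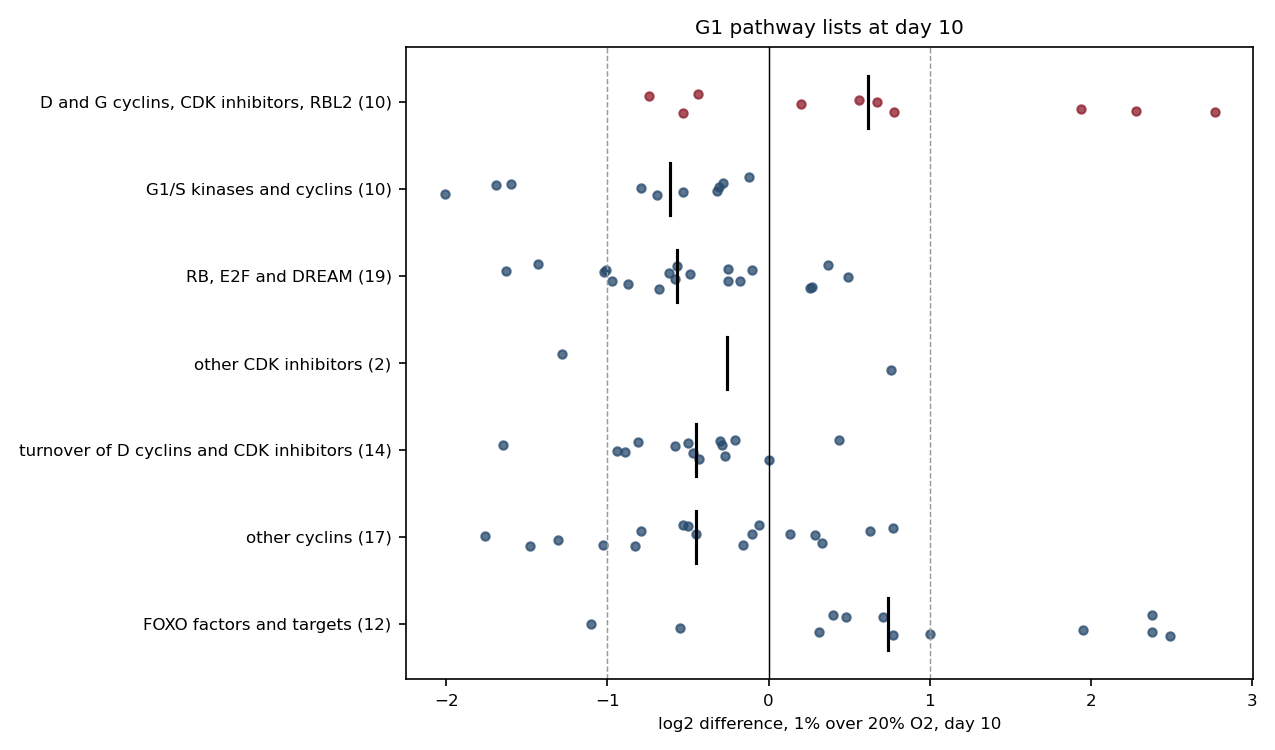
Log2 difference in chronic hypoxia, 1% over 20% O2 on day 10 (horizontal axis), for the 10 genes (red) and 6 pathway lists (blue; number of genes that passed the filter in parentheses). Each point is a gene, short black bars are medians and dashed lines mark the 2-fold rule. The median is 0.61 for the 10 genes, 0.74 for FOXO factors and targets and below 0 for the other 5 lists.

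Genes with the most similar course over the 5 libraries were sought among the 3291 genes that reached 5 CPM in any library and had a log2 range of at least 1, conditions that CCND2, CCNG2, CDKN1C and CDKN2C met. Likeness was the root mean square difference of centred log2 levels over the 5 libraries. The nearest gene to CDKN2C was CCNE1, the cyclin E1 gene, at 0.024, followed by UNKL and RAB13, both at 0.048. CCNE1 had 8.53 CPM (89 counts) in chronic hypoxia and 13.9 CPM at 20% O2 on day 10. CCND2 was nearest to METTL7A (0.094), the nuclear receptor gene NR4A2 (0.096) and PPARGC1A (0.13), which encodes a coactivator of mitochondrial genes. CDKN1C was nearest to NR2F1 (0.161), SYT17 and KLC3. CCNG2 had no neighbour as close: PNRC1 at 0.287, the transporter gene SLC2A12 at 0.304 and the circadian factor gene DBP at 0.321. The measure is not scaled to the log2 range of a gene, which was 2.77 for CCNG2, the widest of the 10, and 1.08 for CDKN2C. PNRC1 had 31.2 CPM at 1% O2 and 13.7 CPM at 20% O2 on day 1, then 28.1 CPM in reoxygenated cells and 87.8 CPM in chronic hypoxia, against 14.0 CPM at 20% O2 on day 10.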

How the data were processed

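RNA-seq was done on 5 MDA-MB-231 libraries, 1 per condition. Whether these came from separate cultures is not in the labels. The p-values of the oxygen test with the day term therefore do not measure a spread between replicates. They rest on the unequal size of the oxygen difference on day 1 and day 10, moderated across genes. The submitters' processing notes name hg38, edgeR, RSEM (1.2.15) and Bowtie2 (2.1.0); annotation and strandedness were not given in the sources used here. The authors deposited expected counts per gene symbol, which were rounded to whole numbers (3.58% to 4.09% of values in a library were not whole). The deposited normalized table (signal values scaled to depth after TMM scaling, made by the authors) held whole-read multiples in 100% of values, within 0.01 reads. At least 99.93% of rows in a library equalled the rounded counts, with 0 differences in the 10 genes, and edgeR's test on these reads called 130 genes, as many as on the counts (an alternative chosen after seeing the data).

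Genes with at least 1 CPM in 1 library were kept. TMM factors (edgeR 4.0.16, R 4.3.3) were 0.965 to 1.067, and log2 CPM used a prior count of 2. For a pair of libraries, the 95% interval came from the exact Clopper-Pearson limits of one count's share of both, and for the difference of differences a normal interval from the counts. Intervals and floors (3 counts) cover counting error only, since the labels name no molecular identifiers. The oxygen test (genes with at least 1 CPM in 2 of 4 libraries) used edgeR's quasi-likelihood fit with Benjamini-Hochberg adjustment at 0.05 and 29.8 prior degrees of freedom; DESeq2 1.42.0 and limma 3.58.1 were alternatives. The steps were tested on simulated data with the same oxygen effect on both days and a smaller spread between libraries than was fitted here. That test therefore does not show how the oxygen test behaves on data like these. CPM per kb used exon lengths of GENCODE 29, and coordinates are from RefSeq (GRCh38.p14).

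The 10 genes, the lists and the tests were chosen with earlier results of these data known. Named genes are the 10, up to 4 per list past the 2-fold rule with at least 5 CPM, a fixed few (CDK4, CDK6, RB1, CDKN2A, CDKN2B) and the nearest 3 in course; CDKN2D, FOXO1, AKTIP and other single genes outside this rule were named after their values were seen. A further gene list and single genes are not reported here.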

Additional observations from a re-analysis of the deposited data

How the results depend on the processing

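Over 6 other settings of scaling, prior count, filter or deposited values, each count of the 10 genes past the 2-fold rule stayed within 1.5 times its value, and 406 of 420 single differences stayed inside their counting interval, the other 14 moving outside it without a called gene changing sign. Library totals in place of TMM factors accounted for 8 of these 14 and moved the median of all genes by 0.12 in chronic hypoxia and by 0.14 within 1% O2. The number of all genes past the 2-fold rule moved more: for acute hypoxia it was 412, against 651 with a prior count of 0.5, 839 with no filter, 93 with deposited values and 131 with a 5 CPM filter. The 5 CPM filter gave 1987 against 2993 in chronic hypoxia, 1889 against 2899 within 1% O2, 1615 against 2609 for chronic minus acute and 1468 against 2337 for reoxygenated cells against chronic hypoxia. For reoxygenated cells against 20% O2 the count was 671, with 188 (deposited values) to 1166 (no filter), and between the 20% O2 libraries 609, with 210 to 1057 under the same settings. In the oxygen test 1 of the 10 genes was called with DESeq2, limma-voom, library totals, either other filter or the recovered reads. Over all genes these fits called 49, 224, 27, 281 (no filter), 29 (5 CPM filter) and 130 genes, against 130. The day pairs the libraries in this test; without the day term (no replicate block) edgeR called 0 of the 10 and 0 of all genes, with 462 genes at an unadjusted p under 0.05. Leaving out each library in turn, which also drops the day term, gave 0 to 7 of the 10 genes called and 0 to 4225 genes in all. The oxygen term of CDKN2C then ran from -0.84 to 0.14, reversing without the 1% O2 library of day 10, and that of CCNG1 from -0.19 to 0.80, reversing without the 20% O2 library of day 10; neither was called by edgeR where it reversed. The cause was not tested. Depth limits CDKN1C most, with 17 to 111 counts per library.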

Other observations

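In chronic hypoxia the FOXO genes themselves were above 20% O2 on day 10 to unequal degrees, and FOXO4 alone passed the 2-fold rule. After 1 day at 1% O2 the log2 difference was -0.12 for FOXO1, 0.35 for FOXO3 and 0.59 for FOXO4. FOXO1 had 21.8 CPM in reoxygenated cells and 28.4 CPM in chronic hypoxia, against 17.3 CPM at 20% O2 on day 10, a chronic log2 difference of 0.71. FOXO3 had 100 CPM in chronic hypoxia and 72.1 CPM at 20% O2, a difference of 0.48. FOXO4 had 5.41 CPM in reoxygenated cells and 14.2 CPM in chronic hypoxia, against 2.37 CPM at 20% O2. Each of these is a difference between 2 libraries with no test, and none of the 3 genes passed edgeR's test of oxygen (adjusted p = 0.743, 0.534 and 0.136). The sestrin genes SESN1 and SESN3, both among the FOXO targets, differed by -0.55 and 0.77 in chronic hypoxia.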
